A study of Mus musculus with 28 samples.

Results

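The 10 genes described are brakes or readouts of mitogen-activated protein (MAP) kinase signalling: the MAP kinase phosphatase genes Dusp1, Dusp4, Dusp5, Dusp6, Dusp10 and Dusp16, the Sprouty genes Spry1, Spry2 and Spry4, and the immediate early gene Egr1. They were chosen by name, as the rows whose gene name equals one of these symbols, and each symbol gave 1 row, so 10 of the 50600 genes in the table are described. RNA-seq was performed on mouse embryonic fibroblasts (MEFs) and on the same kind of cells on days 1, 3, 5 and 7 of reprogramming towards induced pluripotent stem cells, with the p38 inhibitor SB203580 (p38i) given at different times, which asks when inhibition of p38 matters. There are 28 libraries in 14 groups of 2. All cells are wild-type (WT) MEFs from mouse embryo, a mixed primary culture that, per the study's methods, also carries the Oct4-GFP reporter OG2, and all induced groups received Oct4, Klf4 and Sox2 (OKS) by retrovirus in the chemically defined medium iCD1. MEF.ctr are MEFs with no treatment and MEF.p38i are MEFs with the inhibitor. The ctr groups (ctr.d1, ctr.d3, ctr.d5 and ctr.d7) were induced without the inhibitor, which in the study's methods means with the solvent DMSO. The pre_p38i groups had the inhibitor on the MEFs before induction, and the p38i groups had it during induction. The labels place the MEFs in iCD1 and the study's methods place them in a serum medium, so the step from MEF to day 1 may combine a change of medium with the factors and the time. The labels do not say whether the 2 libraries of a group came from separate cultures, so p-values measure only the spread between these libraries, which may be technical.

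MAP kinases are switched on by phosphorylation of a threonine and a tyrosine, and the dual-specificity phosphatases that these Dusp genes encode remove both phosphates. DUSP6 works in the cytoplasm and DUSP5 in the nucleus, and both prefer ERK, while the nuclear phosphatases DUSP1 and DUSP4 act on several MAP kinases and DUSP10 and DUSP16 prefer p38 and JNK. Sprouty proteins restrain signalling from growth factor receptors through Ras to ERK, and Egr1 encodes a zinc-finger transcription factor that is switched on within minutes of ERK activation. Many of these genes are themselves induced by the kinases that their products switch off, which is why their mRNA is often read as a trace of recent signalling.

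The promoters of Dusp1, Dusp5 and Dusp6 are shown because these phosphatase genes had 3 different courses over the 14 groups. The stretches run from 250 to 51 bases before the RefSeq start in GRCm38.p6, and are 200 bases long. Of the 10 genes, 7 have a promoter entry that could be used here. Capitals mark matches to the cAMP response element TGACGTCA or its first part TGACG and to the CArG box, the element bound by serum response factor. The Dusp1 stretch is chr17:26508523-26508722 on the minus strand, the Dusp5 stretch chr19:53528895-53529094 on the plus strand and the Dusp6 stretch chr10:99262981-99263180 on the plus strand.
Dusp1: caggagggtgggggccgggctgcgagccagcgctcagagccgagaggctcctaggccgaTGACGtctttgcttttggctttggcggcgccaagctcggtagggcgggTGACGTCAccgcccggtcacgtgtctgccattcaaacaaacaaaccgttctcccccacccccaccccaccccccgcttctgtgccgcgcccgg
Dusp5: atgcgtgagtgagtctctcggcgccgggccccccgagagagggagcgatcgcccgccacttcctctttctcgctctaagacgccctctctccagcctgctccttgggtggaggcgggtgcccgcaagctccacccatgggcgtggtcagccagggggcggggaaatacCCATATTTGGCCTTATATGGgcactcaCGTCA
Dusp6: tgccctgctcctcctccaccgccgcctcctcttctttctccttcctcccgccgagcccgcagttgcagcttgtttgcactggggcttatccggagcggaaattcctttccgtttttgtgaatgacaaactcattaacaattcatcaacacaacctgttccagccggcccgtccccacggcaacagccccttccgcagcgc

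Both strands of the full 300-base windows, from 250 bases before to 50 after the start, were searched, and the share of all 32851 promoters with a match was counted the same way. Dusp1 holds the full TGACGTCA with its first base at position -143 and a separate TGACG at -191, and 1.79% of all promoters hold the full element and 20.8% the short one, which the full element contains. Dusp5 holds CArG boxes at -82 and -72 that lie side by side, and 1.63% of all promoters hold at least 1. The Dusp5 window also holds TGACG on the minus strand at -55. The AP-1 site TGANTCA (7.81% of promoters), the TATA box TATAAA (13.6%) and the EGR site GCGTGGGCG (0.612%) were not found in the windows of these 3 genes, and Dusp6 had no match to any of the motifs. A match is a run of letters and does not show that a factor binds there.

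The values, whole numbers with library totals of 991287 to 992537, were read as TPM rounded down, a measure of transcript abundance relative to all transcripts of the library. It is scaled to gene length, so levels can be set side by side between genes, but it keeps no trace of read number, so the depth is unknown and no counting interval is given. Differences were tested with limma on the log2(value + 1) scale in 1 model of all 14 groups, for 13230 genes that averaged 1 or more over the libraries, and a gene with a Benjamini-Hochberg adjusted p under 0.05 is said to have risen or fallen. All 10 genes passed the filter. Where the libraries of 2 groups are said to be apart or not to overlap, this is a description only. The share of all genes tested without overlap was not counted. Over 17 comparisons of the 10 genes, 83 of 170 values passed, and 37 of these did not when the model held only the groups compared, which leaves few libraries to estimate the spread. Because every group has 2 libraries, a gene has the same standard error (SE) of the log2 fold change in each comparison of groups: 0.101 for Dusp1 and Spry2, 0.0974 for Dusp4, 0.124 for Dusp5, 0.084 for Dusp6, 0.131 for Dusp10, 0.121 for Dusp16, 0.145 for Spry1, 0.091 for Spry4 and 0.276 for Egr1. The summed values of 7 fibroblast markers were 13321 and 12472 in MEF.ctr, and those of 10 macrophage markers 313 and 298, so the cultures also held macrophage transcripts, while 6 pluripotency markers were at 0 in all MEF libraries. In these bulk libraries, fewer cells of a type and less RNA per cell cannot be told apart. The genes lie at chr8:34807297-34819894 (Dusp4), chr17:26505590-26508519 (Dusp1), chr19:53529109-53542431 (Dusp5), chr10:99263231-99267489 (Dusp6), chr1:184013302-184075636 (Dusp10), chr6:134715468-134792625 (Dusp16), chr3:37639947-37644598 (Spry1) and chr14:105891949-105896819 (Spry2) in GRCm38, and Spry4 and Egr1 are on chromosome 18. Antisense or other genes overlap Dusp5, Dusp10, Dusp16, Spry1 and Spry4 on the opposite strand. Those with a value are listed at 3 or lower in every library, but the strand setting of the counting is not given in the sources used here, so reads of these pairs cannot be told apart, and Dusp5 and Spry1 share near-identical sequence with their partners AC137853.2 and Gm42922.

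Across the 14 groups the 10 genes differed widely in how much they moved. Egr1 had the widest range, with a group mean of 173.5 in MEF.p38i and 8.5 in pre_p38i.d7, a ratio of 20.4. Dusp5 spanned a ratio of 10.9, Dusp1 6.85 and Spry4 5.75. Dusp10 and Dusp16 moved least, with a ratio of 1.68 each and group means between 12.5 and 21.0 and between 11.0 and 18.5. The group pre_p38i.d7 had the lowest mean of all 14 for Dusp1, Dusp4, Dusp5 and Egr1, and p38i.d1 had the lowest for Dusp6, Dusp16, Spry1 and Spry2. Placed in order of level, most neighbouring groups overlapped: of 13 neighbouring pairs, the libraries did not overlap in 6 for Dusp1 and Spry4, 5 for Dusp4, 4 for Dusp5, Dusp6 and Egr1, 3 for Spry1 and Spry2 and 2 for Dusp16, and for Dusp10 each of the 13 overlapped.

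**Figure D1:**
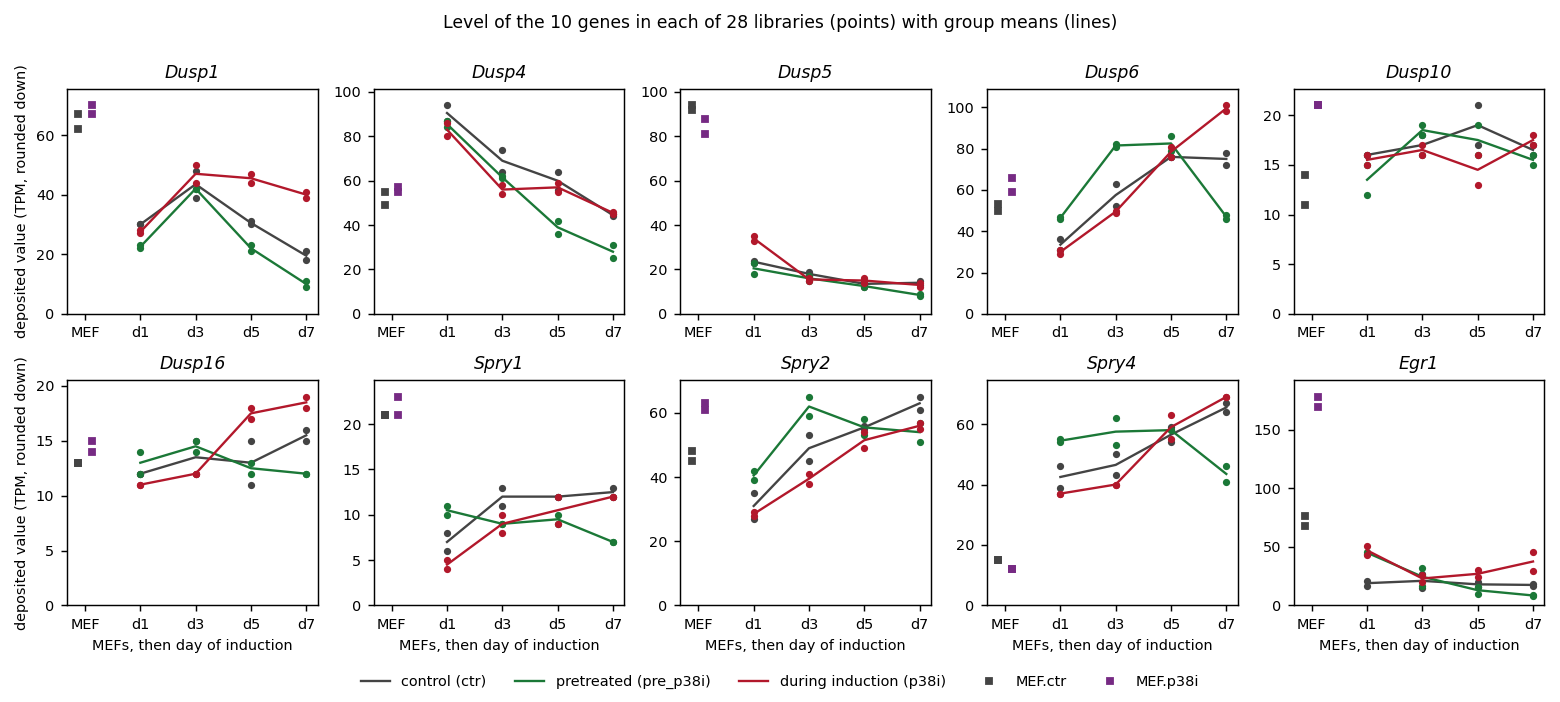
Deposited value (TPM, rounded down, linear axes that start at 0) of each of the 10 genes in MEFs (squares) and on days 1, 3, 5 and 7 of induction (circles are libraries, lines join means of 2 libraries). Dusp5 was high in MEFs and low from day 1, as was Egr1 in the control group, and Spry4 went the other way. Egr1 was 44 and 46 in pre_p38i.d1 and 51 and 43 in p38i.d1, against 21 and 17 in ctr.d1. The pretreated group crossed from above to below the control group for Dusp6 and Spry4 between day 1 and day 7.

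From MEFs to day 1 of control induction, both phosphatase genes whose products prefer ERK fell, and Dusp4 rose. Dusp5 was 92 and 94 in MEF.ctr and 24 and 23 in ctr.d1, a log2 fold change of -1.94 (limma, adjusted p = 5.21e-11). Dusp6 was 50 and 53 against 31 and 36, a log2 fold change of -0.61 (adjusted p = 3.66e-06). Dusp4, whose product also takes other MAP kinases, went up, from 55 and 49 to 94 and 87 (0.79, adjusted p = 8.68e-07). The groups did not overlap for any of these genes. Dusp1 was 62 and 67 in MEF.ctr and 30 and 30 in ctr.d1, a log2 fold change of -1.08 (adjusted p = 1.71e-08), and Dusp16 was 13 and 13 against 12 and 12 (-0.11, adjusted p = 0.485, and called lower after quantile normalization at -0.35). Dusp10 rose by 0.34 (adjusted p = 0.0333), a call that was lost under quantile normalization (0.08), without MEF.ctr replicate 1 (0.18, adjusted p = 0.348) and without either ctr.d1 library (adjusted p 0.0966 and 0.0978).

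The Sprouty genes also divided at this step. Spry4 was 15 and 15 in MEF.ctr and 46 and 39 in ctr.d1, a rise of 1.44 on the log2 scale (limma, adjusted p = 4.68e-11). Spry1 went from 21 and 21 to 6 and 8 (-1.47, adjusted p = 3.85e-08) and Spry2 from 48 and 45 to 35 and 27 (-0.58, adjusted p = 5.84e-05). The sum of the 3 Sprouty genes was nearly level, at 84 and 81 in MEF.ctr and 87 and 74 in ctr.d1. Egr1 went from 76 and 68 to 21 and 17 (-1.87, adjusted p = 8.41e-06). In all, 3 of the 10 genes rose and 6 fell, against 55.5% of all genes tested that passed in either direction (36.6% higher and 18.9% lower), so a large share of calls was the background here. The median log2 fold change was -0.59 over the 10 genes and 0.14 over all genes tested, or -0.07 over all genes after quantile normalization, and 65.9% of all calls were higher, or 47.5% after quantile normalization. When only the 2 groups were fitted, Dusp10 and Spry2 were not called (adjusted p = 0.173 and 0.0897). From MEF.ctr to ctr.d1 the fibroblast marker sum went from 13321 and 12472 to 8198 and 7912, with 6 of 7 markers lower and 1 higher, and the macrophage sum from 313 and 298 to 258 and 253, with 4 of 9 tested markers lower and 1 higher, and their part in these values was not tested.

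From day 1 to day 7 of control induction, 5 of the 10 genes rose and 3 fell, against 54.6% of all genes in either direction (28.4% higher and 26.1% lower). Dusp6 went up through 31 and 36 (day 1), 52 and 63 (day 3), 76 and 76 (day 5) and 72 and 78 (day 7), with a log2 fold change from day 1 to day 7 of 1.14 (limma, adjusted p = 6.12e-10). Dusp4 ran against it, with 94 and 87, 74 and 64, 56 and 64, and 45 and 44 on the same days (-1.01, adjusted p = 3.55e-08). Of the 6 phosphatase genes, Dusp4 stood highest on day 1 and Dusp6 on day 7. Dusp5 fell further (24 and 23 to 13 and 15, -0.71). Dusp1 also ended lower (30 and 30 to 21 and 18, -0.60), but stood at 48 and 39 on day 3 and 31 and 30 on day 5. Spry1 (0.77), Spry2 (1.01) and Spry4 (0.62) rose together, and their sum went from 87 and 74 to 141 and 141. Egr1 was 21 and 17 on day 1 and 17 and 18 on day 7 (-0.11, adjusted p = 0.772). Dusp16 rose by 0.34 (adjusted p = 0.0223), but was not called after quantile normalization, without either ctr.d1 library (adjusted p 0.0735 and 0.0736) or without ctr.d7 replicate 2 (0.117), and Spry1 was not when only the 2 groups were fitted (0.0515). Over the same days, the fibroblast marker sum went from 8198 and 7912 to 3030 and 3188 and that of 6 epithelial markers from 23 and 25 to 491 and 461, and their part in these changes was not tested.

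The make-up of the phosphatase mRNA changed along this course. In MEF.ctr the 6 phosphatase genes summed to 283 and 290, of which Dusp5 took 32.5% ± 0.067 (SD, n = 2), Dusp1 22.5% ± 0.845, Dusp4 18.2% ± 1.80 and Dusp6 18.0% ± 0.43. In ctr.d1 Dusp4 took 44.0% ± 1.95 and Dusp5 11.4% ± 0.226 of a sum of 207 and 204. By ctr.d7 the sum was 182 and 188 and Dusp6 took 40.5% ± 1.36. Dusp6 also led on day 7 in pre_p38i (38.9% ± 1.10) and p38i (42.5% ± 0.393), although the sums were 126 and 116 in pre_p38i.d7 and 232 and 236 in p38i.d7. The day 7 groups thus differed in the summed TPM of these 6 genes, a relative level, in the order pre_p38i, ctr and p38i. Their libraries did not overlap, and the same gene led in all of them. Dusp1 took 8.24% ± 0.687 of the sum in pre_p38i.d7, 10.6% ± 1.39 in ctr.d7 and 17.1% ± 0.398 in p38i.d7.

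**Figure D2:**
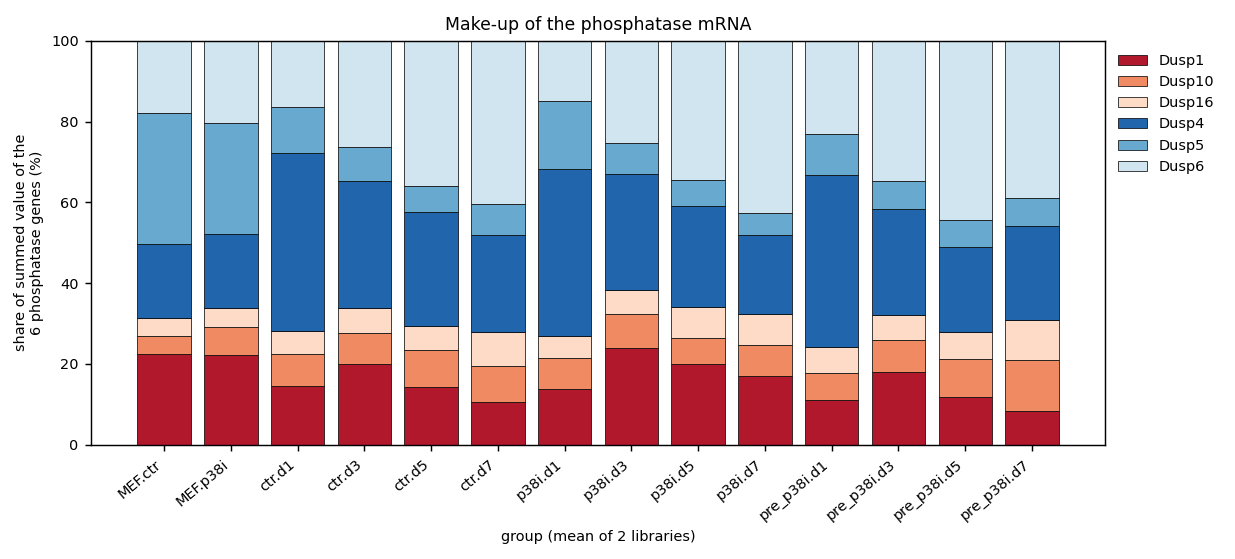
Share of each gene in the summed TPM of the 6 phosphatase genes, as the mean of 2 libraries per group (stacked bars, percent, axis from 0 to 100). Dusp5 took 32.5% in MEF.ctr, Dusp4 44.0% in ctr.d1 and Dusp6 40.5% in ctr.d7.

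In MEFs, the inhibitor went with a large rise of Egr1. Egr1 was 76 and 68 in MEF.ctr and 169 and 178 in MEF.p38i, a log2 fold change of 1.26 (limma, adjusted p = 0.00301), and it was called in each of the alternatives tried. Dusp10 went from 11 and 14 to 21 and 21 (0.71, adjusted p = 0.000661), and MEF.p38i had its highest group mean. Spry2 went from 48 and 45 to 61 and 63 (0.41, adjusted p = 0.00747) and Dusp6 from 50 and 53 to 59 and 66 (0.27, adjusted p = 0.0292). Spry4 fell from 15 and 15 to 12 and 12 (-0.30, adjusted p = 0.0272). Of the 10 genes, 4 rose and 1 fell, against 17.9% of all genes tested in either direction (9.73% higher and 8.15% lower). The remaining 5 had log2 fold changes between -0.14 (Dusp5) and 0.15 (Dusp16), and Dusp1 was 62 and 67 against 70 and 67. The smaller calls rested on few libraries. Spry4 lost its call when any 1 of the 4 libraries was left out (adjusted p 0.0975 to 0.107), Dusp6 without either MEF.ctr library or MEF.p38i replicate 2 (0.0566 to 0.255), and Spry2 without MEF.ctr replicate 2 or MEF.p38i replicate 2 (0.0688 and 0.0563). When only the 2 groups were fitted, Egr1 alone was called, and the other called genes had adjusted p between 0.051 and 0.192. The fibroblast marker sum was lower in MEF.p38i (9770 and 9890) and so was the macrophage sum (210 and 213), with 4 of 7 and 5 of 9 tested markers lower, and their part in these changes was not tested.

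On day 1 after pretreatment, when the inhibitor was no longer given, Egr1, Dusp6 and the Sprouty genes stood above the control. Egr1 was 44 and 46 in pre_p38i.d1 and 21 and 17 in ctr.d1, a log2 fold change of 1.21 (limma, adjusted p = 0.00693). Dusp6 was 47 and 46 against 31 and 36 (0.47, adjusted p = 0.00107). Spry1 was 11 and 10 against 6 and 8 (0.53), Spry2 42 and 39 against 35 and 27 (0.39) and Spry4 55 and 54 against 46 and 39 (0.36), with adjusted p between 0.0148 and 0.0212. All 3 Sprouty genes measured here were thus called higher. Dusp1 went the other way, at 23 and 22 against 30 and 30 (-0.40, adjusted p = 0.0135). In total 5 of the 10 genes rose and 1 fell, against 11.6% of all genes tested in either direction (5.4% higher and 6.24% lower). Of these calls, that of Dusp6 was kept when any 1 library was left out, and none of the 6 was kept when only the 2 groups were fitted (adjusted p 0.0675 to 0.334, with 4 of the 10 genes at an unadjusted p under 0.05 in limma). Without ctr.d1 replicate 2, the log2 fold change was 1.06 for Egr1 (adjusted p = 0.073), 0.20 for Spry2 (0.284) and 0.24 for Spry4 (0.199), without ctr.d1 replicate 1 it was 0.35 for Spry1 (0.244), and Dusp1 was not called without either of them (0.0684 and 0.0685). Leaving out a pretreated library also ended calls: pre_p38i.d1 replicate 1 those of Spry1 (0.133), Spry2 (0.124) and Spry4 (0.0805), and replicate 2 those of Egr1 (0.0502), Dusp1 (0.0924), Spry1 (0.0567) and Spry4 (0.0638). The macrophage marker sum was 91 and 90 in pre_p38i.d1 and 258 and 253 in ctr.d1, with 6 of 9 tested markers lower, 4 of 7 fibroblast markers were lower (sums of 6047 and 6501 against 8198 and 7912), and their part in these values was not tested.

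On day 3 after pretreatment the higher level of Dusp6 remained and that of Egr1 did not. Dusp6 was 82 and 81 in pre_p38i.d3 and 52 and 63 in ctr.d3 (0.50, limma, adjusted p = 0.000279). Egr1 was 32 and 17 against 27 and 15, so its groups overlapped (0.20, adjusted p = 0.663). Spry2 (65 and 59 against 53 and 45, 0.34, adjusted p = 0.0226) and Spry4 (62 and 53 against 50 and 43, 0.30, adjusted p = 0.0242) were called higher. Thus 3 of the 10 genes rose, against 20.6% of all genes in either direction and 13.8% higher. Both Sprouty calls were lost after quantile normalization, without ctr.d3 replicate 2 (adjusted p = 0.229 for Spry2 and 0.242 for Spry4) and without pre_p38i.d3 replicate 1 (0.182 and 0.277). When only the 2 groups were fitted, none of the 3 was called (adjusted p 0.127 to 0.272, with 2 of the 10 genes at an unadjusted p under 0.05 in limma), and after quantile normalization Spry1 was called lower (-0.51). Of all calls, 66.7% were higher, or 50.7% after quantile normalization. On day 3, 8 of 9 tested macrophage markers (sums of 176 and 162 against 427 and 440) and 5 of 7 fibroblast markers (4626 and 4720 against 6787 and 6261) were lower and 4 of 6 epithelial markers (127 and 128 against 67 and 64) higher, and their part in these values was not tested.

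On day 5 after pretreatment Dusp1 and Dusp4 were lower than in the control. Dusp4 was 36 and 42 in pre_p38i.d5 and 56 and 64 in ctr.d5 (-0.61, limma, adjusted p = 0.000107), and Dusp1 was 21 and 23 against 31 and 30 (-0.45, adjusted p = 0.00227). These 2 genes fell, against 25.6% of all genes in either direction and 11.3% lower, and both calls were kept when any 1 library was left out but not when only the 2 groups were fitted (adjusted p = 0.0598 and 0.0935, with 3 of the 10 genes at an unadjusted p under 0.05 in limma). After quantile normalization Spry1 was also called lower (-0.41). In the main fit, the share of the 10 genes that passed in either direction was not above that of all genes. Dusp6 was 79 and 86 against 76 and 76 (0.12, adjusted p = 0.348), and Spry4 was 58 and 58 against 54 and 59 (0.04). On day 5, 9 of 9 tested macrophage markers (sums of 87 and 85 against 431 and 428) and 6 of 7 fibroblast markers (3188 and 3059 against 4204 and 4727) were lower and 4 of 6 epithelial markers (340 and 322 against 144 and 134) higher, and their part in these values was not tested.

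On day 7, 8 of the 10 genes were lower in the pretreated cells than in the control, against 29.9% of all genes in either direction and 14.5% lower. Dusp1 was 11 and 9 in pre_p38i.d7 and 21 and 18 in ctr.d7, a log2 fold change of -0.90 (limma, adjusted p = 1.17e-06). Egr1 was 9 and 8 against 17 and 18 (-0.96, adjusted p = 0.0123). Spry1 was 7 and 7 against 12 and 13 (-0.75, adjusted p = 0.000563). The groups of each of these genes were apart, with every pretreated library below every control library. Dusp4 was 31 and 25 against 45 and 44, Dusp5 8 and 9 against 13 and 15, and Dusp6 48 and 46 against 72 and 78, and the log2 fold change of each was -0.66. These 3 phosphatase genes fell by nearly the same factor. Spry4 was 46 and 41 against 64 and 67 (-0.58, adjusted p = 6.83e-05), and Dusp16 was 12 and 12 against 15 and 16 (-0.34, adjusted p = 0.0388). The genes not called were Dusp10 (16 and 15 against 16 and 17, -0.09) and Spry2 (51 and 57 against 65 and 61, -0.22, adjusted p = 0.109), and Spry2 was called lower after quantile normalization. The median over the 10 genes was -0.66, while that over all genes tested was 0.05. Dusp16 lost its call when any 1 of the 4 libraries was left out (adjusted p 0.0787 to 0.184), and Egr1 without ctr.d7 replicate 2 (-0.92, 0.0703) or pre_p38i.d7 replicate 2 (-0.89, 0.0785). When only the 2 groups were fitted, Dusp1, Dusp4 and Dusp5 were not called (0.0582 to 0.0747). Marker sums moved widely at the same time. The fibroblast sum was 2294 and 2167 against 3030 and 3188 with 7 of 7 markers lower, the macrophage sum 47 and 36 against 216 and 215 with 9 of 9 tested markers lower, and the epithelial sum 909 and 949 against 491 and 461 with 6 of 6 markers higher. The pluripotency sum was 134 and 130 against 73 and 82 with 2 of 4 tested markers higher, and the part of these marker genes in the lower values was not tested.

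Whether the effect of pretreatment changed from day 1 to day 7 was tested directly, as the difference between the day 7 and the day 1 log2 fold change. It passed the threshold below 0 for 7 of the 10 genes, against 16.7% of all genes in either direction and 9.43% lower. The change was -2.17 (SE 0.39) for Egr1 (limma, adjusted p = 0.000612), -1.29 (SE 0.205) for Spry1 (0.00019), -1.13 (SE 0.119) for Dusp6 (1.83e-06) and -0.94 (SE 0.129) for Spry4 (3.5e-05). For these 4 genes the sign itself turned in the main fit, from higher on day 1 to lower on day 7, each end past the threshold. The day 1 calls of Egr1, Spry1 and Spry4 rested on single libraries, as given above, and so did the day 7 call of Egr1. None of the 4 day 1 calls was kept when only the 2 groups were fitted (limma, adjusted p 0.0838 to 0.255). The change also passed for Spry2 (-0.61), Dusp4 (-0.58) and Dusp1 (-0.50), but without a called turn of sign. Spry2 was not called on day 7, Dusp4 was not called on day 1 and Dusp1 was lower on both days. Dusp1 was not called without either ctr.d1 library, ctr.d7 replicate 1, pre_p38i.d1 replicate 1 or pre_p38i.d7 replicate 2 (adjusted p 0.0505 to 0.111), and Dusp1, Dusp4 and Spry2 were not when only the groups compared were fitted (0.0571 to 0.107). Dusp5 (-0.58) and Dusp16 (-0.53) were called after quantile normalization, and Dusp5 also without pre_p38i.d1 replicate 1 (-0.63).

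With the inhibitor present during induction, Egr1 was again high on day 1 and the Sprouty genes were not. Egr1 was 51 and 43 in p38i.d1 and 21 and 17 in ctr.d1 (1.27, limma, adjusted p = 0.00329), a call kept when any 1 library was left out but not when only the 2 groups were fitted (adjusted p = 0.0731). Dusp5 was 33 and 35 against 24 and 23 (0.51, adjusted p = 0.00682). Spry1 was 5 and 4 against 6 and 8 (-0.54, adjusted p = 0.0151). Thus 2 genes rose and 1 fell, against 16.1% of all genes tested in either direction (3.47% higher and 12.6% lower). Dusp5 was not called without p38i.d1 replicate 2 (0.47, adjusted p = 0.063), and Spry1 was not called after quantile normalization, when only the 2 groups were fitted (0.241), without ctr.d1 replicate 2 (-0.35, 0.188) or without p38i.d1 replicate 2 (-0.40, 0.168). Of all calls on days 1, 3 and 5, 21.6%, 24.4% and 29.6% were higher, or 41.1%, 50% and 52.7% after quantile normalization. On day 1, 4 of 7 fibroblast markers were lower (sums of 7227 and 7339 against 8198 and 7912), and of 9 tested macrophage markers 2 were lower and 1 higher (184 and 202 against 258 and 253), and their part in these values was not tested. The ctr libraries serve in both the pre_p38i and the p38i comparisons, so these are not independent of each other.

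On day 3 of continuous inhibition 2 of the 10 genes fell, against 21.4% of all genes tested in either direction and 16.2% lower. The share that passed in either direction was thus not above that of all genes. The 2 were Dusp4 (54 and 58 against 74 and 64, -0.29, limma, adjusted p = 0.0371) and Spry2 (41 and 38 against 53 and 45, -0.30, adjusted p = 0.0392). Neither was called after quantile normalization, with no filter, when only the 2 groups were fitted, or without ctr.d3 replicate 1 (adjusted p = 0.309 and 0.338), p38i.d3 replicate 1 (0.204 and 0.0669) or p38i.d3 replicate 2 (0.063 and 0.206). Dusp6 was called lower without ctr.d3 replicate 1 (-0.34), Spry1 without p38i.d3 replicate 1 (-0.53) and Spry4 without ctr.d3 replicate 2 (-0.31), so the day 3 calls changed with single libraries. On day 5, Dusp1 was 47 and 44 in p38i.d5 and 31 and 30 in ctr.d5 (0.56, adjusted p = 0.000352), a call kept when any 1 library was left out. Dusp16 rose (17 and 18 against 11 and 15, 0.42, adjusted p = 0.0155) and Dusp10 fell (16 and 13 against 17 and 21, -0.37, adjusted p = 0.0449), so 3 of the 10 passed, against 26.6% of all genes in either direction (7.87% higher and 18.7% lower). Dusp16 was not called without ctr.d5 replicate 1 (0.21, 0.264) or p38i.d5 replicate 2 (0.38, 0.0925), and Dusp10 not after quantile normalization, with no filter or with a pseudocount of 0.1, nor without ctr.d5 replicate 2 (-0.22, 0.361) or p38i.d5 replicate 2 (-0.23, 0.344), and neither was called when only the 2 groups were fitted (0.262 and 0.291). On day 3, 6 of 9 tested macrophage markers (sums of 262 and 245 against 427 and 440), 5 of 7 fibroblast markers (5808 and 5685 against 6787 and 6261, with the other 2 higher) and 4 of 6 epithelial markers (27 and 22 against 67 and 64) were lower. On day 5, 7 of 9 tested macrophage markers were lower and 1 higher (216 and 228 against 431 and 428), 4 of 7 fibroblast markers lower and 2 higher (5009 and 4795 against 4204 and 4727) and 4 of 6 epithelial markers lower (79 and 76 against 144 and 134), and their part in these values was not tested.

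On day 7 of continuous inhibition Dusp1, Dusp6 and Egr1 were higher than in the control. Dusp1 was 39 and 41 in p38i.d7 and 21 and 18 in ctr.d7, a log2 fold change of 1.00 (limma, adjusted p = 3.21e-07). Dusp6 was 98 and 101 against 72 and 78 (0.40, adjusted p = 0.000926), its highest level in any group. Egr1 was 46 and 29 against 17 and 18 (1.02, adjusted p = 0.00718), with libraries that stood far apart within p38i.d7, and without p38i.d7 replicate 1 its log2 fold change was 0.70 (adjusted p = 0.121), and it was not called when only the 2 groups were fitted (0.11). These 3 genes rose, against 34.1% of all genes in either direction and 16.5% higher, so the share of the 10 genes that passed in either direction was not above that of all genes. Dusp4 was 46 and 45 against 45 and 44 (0.03), and Spry4 was 69 and 69 against 64 and 67 (0.07, adjusted p = 0.574). The control level of Dusp1 went from 48 and 39 at day 3 to 21 and 18 at day 7, where the p38i levels were 50 and 44 and later 39 and 41. The effect of continuous inhibition changed from day 1 to day 7 for Dusp1 (1.13, SE 0.142, adjusted p = 1.52e-05), Dusp6 (0.56, SE 0.119, 0.00228) and Dusp5 (-0.61, SE 0.175, 0.0163), against 21.6% of all genes in either direction (14.1% higher and 7.55% lower). Of all these calls 65.1% were higher, or 55.3% after quantile normalization. The change of Dusp5 was not called without p38i.d1 replicate 2 (0.0571), p38i.d7 replicate 2 (0.0808) or ctr.d7 replicate 2 (0.0757), and without ctr.d1 replicate 1 a change of 0.66 for Spry1 was called. In p38i.d7, the pluripotency marker sum was 8 and 10 and the epithelial sum 220 and 201, with 4 of 4 tested and 6 of 6 markers lower than in ctr.d7, the fibroblast sum 4081 and 4055 with 3 of 7 markers higher, the macrophage sum 222 and 195 with 5 of 9 tested markers lower and 1 higher, and their part in these changes was not tested.

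**Figure D3:**
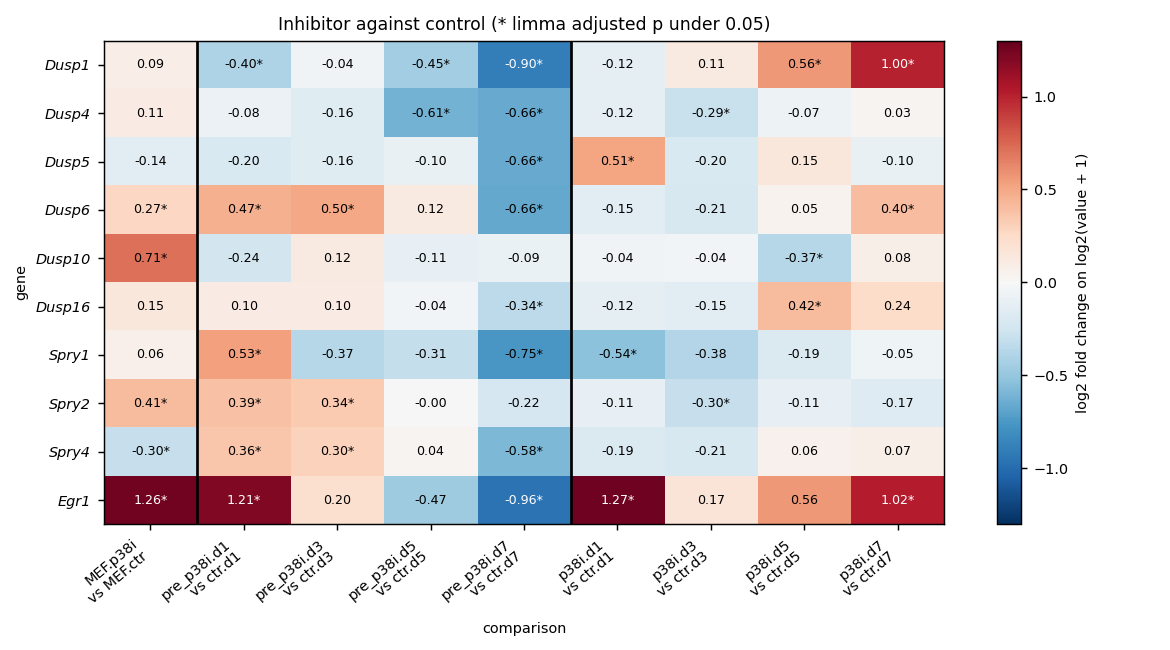
Log2 fold change of each gene (rows) on log2(value + 1) in MEF.p38i against MEF.ctr and in pre_p38i and p38i against ctr on the same day (columns), with an asterisk where the limma adjusted p was under 0.05 (2 libraries per group). Pretreatment went from 1.21 for Egr1 and 0.47 for Dusp6 on day 1 to -0.96 and -0.66 on day 7.

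Set directly against each other, the 2 ways of giving the inhibitor differed in opposite directions on day 1 and day 7 for Dusp6, Spry1 and Spry4. On day 1, Spry1 (-1.07, limma, adjusted p = 1.46e-05), Dusp6 (-0.62, 1.52e-05), Spry4 (-0.55, 0.000136) and Spry2 (-0.49, 0.00104) were lower in p38i than in pre_p38i, and Dusp5 (0.71, 0.00021) and Dusp1 (0.28, 0.0453) were higher, against 28.2% of all genes in either direction (8.25% higher and 19.9% lower). Egr1 was 51 and 43 in p38i.d1 and 44 and 46 in pre_p38i.d1, a difference of 0.06 with an SE of 0.276. On day 3, 3 of the 10 genes were lower, Dusp6 (-0.71), Spry2 (-0.64) and Spry4 (-0.51). This share was not above that of all genes, of which 42.2% passed in either direction and 31.4% were lower, with a median of -0.16. On day 5, 4 of the 10 genes were higher, Dusp1 (1.02), Egr1 (1.03), Dusp4 (0.54) and Dusp16 (0.46). Of all genes, 47.5% passed in either direction and 16.3% were higher, with a median of -0.12. The share of the 10 genes that passed in either direction was thus not above that of all genes. Of all calls on days 1, 3 and 5, 29.3%, 25.5% and 34.4% were higher, or 44.5%, 53.7% and 52.9% after quantile normalization. On day 7, 8 of the 10 genes were higher in p38i, the exceptions being Dusp10 and Spry2, against 54.3% of all genes in either direction and 24.8% higher. The largest differences were 1.98 for Egr1 (46 and 29 against 9 and 8, adjusted p = 5.2e-06), 1.90 for Dusp1 (39 and 41 against 11 and 9, adjusted p = 7.5e-12) and 1.07 for Dusp6 (98 and 101 against 48 and 46, adjusted p = 2.44e-09). The day 7 count stayed at 8 when any 1 library was left out. The day 1 call of Dusp1 was lost with no filter and when any 1 of the 4 libraries was left out (adjusted p 0.0896 to 0.187), and the day 5 call of Egr1 without p38i.d5 replicate 1 (0.0522) or pre_p38i.d5 replicate 1 (0.0907). After quantile normalization Dusp1 was also called higher on day 3 (0.34), and Dusp5 (0.45) and Spry1 (0.38) on day 5. When only the 2 groups were fitted, Dusp1 and Dusp5 on day 1, Spry4 on day 3, Dusp4 and Egr1 on day 5 and Dusp5 on day 7 were not called (adjusted p 0.0501 to 0.102). In p38i.d7 against pre_p38i.d7, 7 of 7 fibroblast markers (sums of 4081 and 4055 against 2294 and 2167) and 8 of 9 tested macrophage markers (222 and 195 against 47 and 36) were higher, and 6 of 6 epithelial markers (220 and 201 against 909 and 949) and 4 of 4 tested pluripotency markers (8 and 10 against 134 and 130) lower. Of 9 tested macrophage markers, 7 were higher on day 1, 3 were higher and 3 lower on day 3 and 3 were higher on day 5, and 3, 5 and 6 of 6 epithelial markers were lower on these days, with 1 higher on day 1. Of 7 fibroblast markers, 2, 2 and 4 were higher and 1, 4 and 1 lower on these days, and their part in these values was not tested.

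**Figure D4:**
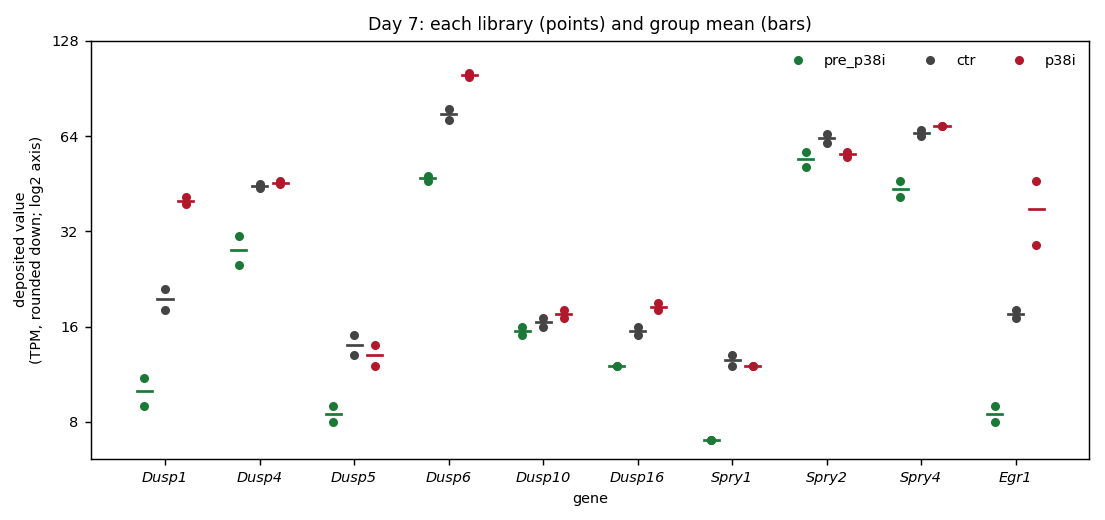
Deposited value (TPM, rounded down, log2 axis) of the 10 genes on day 7 in pre_p38i, ctr and p38i, with points for libraries and bars for means of 2 libraries. Dusp1 was 11 and 9, 21 and 18, and 39 and 41 in the 3 groups, while Dusp10 lay between 15 and 18 in all of them.

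Other genes of the same pathway were listed to see whether they moved with the 10. In MEF.p38i, where Egr1 rose, 1 of 14 other immediate early genes rose and 4 fell, against 9.73% of all genes higher and 8.15% lower, shares that apply to the other lists in MEFs too. Nr4a1, which encodes an orphan nuclear receptor, was 46 and 40 in MEF.ctr and 25 and 25 in MEF.p38i (-0.76, limma, adjusted p = 7.9e-05). Junb, a subunit of AP-1, was 175 and 189 against 120 and 122 (-0.58, adjusted p = 0.000551). The median over the 14 genes was -0.23, that over all genes 0, and the value for Egr1 1.26. Of 9 other genes known as ERK outputs, 2 rose and 3 fell, and the median over the 9 was 0.21. The 2 called genes with the largest change were both lower, Phlda1 (-0.43) and Fosl1 (-0.35). Of 20 tested genes of the ERK and JNK cascades, 4 rose and 3 fell, with Fgfr2 higher (0.75) and Pdgfrb lower (-0.89).

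From MEF.ctr to ctr.d1, 10 of the 14 other immediate early genes fell and 1 rose, with a median of -0.996, in the direction of Egr1, against 36.6% of all genes higher and 18.9% lower. Ier5 was at -2.44 and Srf, the factor that binds CArG boxes, at -1.80 (72 on average in MEF.ctr and 20 in ctr.d1). Of 6 tested other inhibitors of receptor signalling, 4 rose and 1 fell. Lrig1, which restrains receptor tyrosine kinases, rose by 1.52, in the direction of Spry4, and Errfi1, an inhibitor of the EGF receptor, fell by 1.34 on the log2 scale. Of the 9 other ERK output genes, 6 rose and 1 fell, led by Etv1 (2.41) and the cyclin gene Ccnd1 (2.18), and these counts also stand beside a background where 55.5% of all genes passed.

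On day 1, the median of the 6 tested other inhibitors of receptor signalling was 0.10 after pretreatment and -0.31 under continuous inhibition, where 4 of the 6 fell against 12.6% of all genes, with Lrig1 at -0.49 and Errfi1 at -0.37. Fos, another immediate early gene, was 10 and 11 in pre_p38i.d1 against 5 and 5 in ctr.d1 (0.94, limma, adjusted p = 0.00519), and, a value added after it was seen, 6 and 5 in p38i.d1 (0.11, adjusted p = 0.789). Among the 14 other immediate early genes, Fos alone was called on day 1 after pretreatment, with 13 not called and a median of 0.05. None of the 6 tested inhibitors was called there. Of the 9 other ERK output genes, 2 rose and 3 fell there, against 5.4% of all genes higher and 6.24% lower. On day 7, 6 of 9 other ERK output genes fell after pretreatment, against 14.5% of all genes, with a median of -0.36. Fosl1 was 11 and 11 in pre_p38i.d7 and 26 and 32 in ctr.d7 (-1.31, adjusted p = 6.35e-09) and Epha2 31 and 27 against 52 and 55 (-0.86, adjusted p = 9.45e-08). Junb (-0.72) and Fos (-0.61) were among 3 of 14 immediate early genes that fell, and 2 rose. Under continuous inhibition on day 7, where Dusp6 rose, 5 of the 9 fell and 1 rose, against 34.1% of all genes in either direction, with Epha2 at 32 and 30 (-0.77, adjusted p = 4.74e-07) and Fosl1 at 18 and 17 (-0.69), both also lower than in the control after pretreatment. Dusp9, a cytoplasmic phosphatase that prefers ERK, was 1 and 1 in pre_p38i.d7, 3 and 2 in ctr.d7 and 5 and 6 in p38i.d7, with log2 fold changes against the control of -0.79 (adjusted p = 0.00327) and 0.90 (adjusted p = 0.000905), and these low whole numbers make its size uncertain. Errfi1 fell by 0.63 on the log2 scale after pretreatment and rose by 0.51 under continuous inhibition.

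Over the 14 group means, some of the 10 genes ran alike and others did not. Pearson's r was 0.87 between Dusp5 and Egr1, 0.86 between Dusp6 and Spry2 and -0.90 between Dusp5 and Spry4. These are descriptions over 14 points that share libraries within a time course and a common step from MEFs to day 1. Among 10668 genes searched, the genes most like Dusp5 were Myl12a (r = 0.99) and Fhl3 (0.98), those most like Spry4 were Notch4 (0.99) and Agtr1a (0.98), with Spred2, another inhibitor of Ras-ERK signalling, next (0.97), and those most like Dusp1 were Plxna1 (0.97) and Klhl26 (0.94). Dusp4 was closest to Lrrfip1 (0.97), Dusp6 to Zmynd11 (0.92), Spry1 to Tgfb2 (0.94), Spry2 to Trib2 (0.94) and Egr1 to Rsu1 (0.93). Dusp10 and Dusp16, with the smallest ranges, had no close partner, the highest r being 0.75 with Sike1 and 0.80 with Mageh1.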

How the data were processed

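RNA-seq of 28 libraries (14 groups of 2) was analysed, with groups taken from the sample labels. The value that the authors deposited per gene and library is a score: whole numbers that total 991287 to 992537 per library, read here as TPM rounded down. The unit is inferred, the planned test for values that are not counts was used, and depth is unknown. The submitters' processing notes name bcl2fastq, Bowtie2 2.2.5, RSEM 1.3.0 and the builds hg38 and mm10, with no role given. Labels and the study's methods differ on RNA extraction, library kit and MEF medium. Of the gene identifiers, 99.6% are in GENCODE M21, and 92.5% of genes have the same position there. The names of 27 genes read as dates, and none of these is named here.

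Values were tested with limma 3.58.1 (R 4.3.3), using lmFit and a trended eBayes, two-sided, on log2(value + 1), over 13230 genes with a mean of at least 1, all 14 groups in 1 model, with Benjamini-Hochberg adjustment over all genes tested in each of 17 comparisons. Fold changes on this scale understate changes of low genes. With 200 genes changed among 12909 in data simulated on p38i.d7 against ctr.d7, all 200 were called among 210 calls. The changed genes had a mean of at least 5 and moved by 1 or 2 on the log2 scale. Apart from this change each gene had the same mean in all groups, with a spread read from a smooth trend. The check thus does not cover smaller changes, such as many of those given here, or genes with a wider spread. Replicates correlated at 0.982 to 0.991 and none were duplicates. Replicate numbers did not pair the libraries. Marker and pathway lists were read as counts and medians. Besides the 10 genes, the 2 called genes with the largest fold change per list and comparison (mean at least 5), and the 3 genes with the most alike group means, could be named. The 10 genes and the lists were chosen with earlier results of these data known. Promoters are RefSeq GRCm38.p6. Near-identical genes (95% over 200 bases) were found with BLAST 2.17.0+, and plots drawn with matplotlib 3.10.9. Alternatives were quantile normalization, a smaller pseudocount (0.1), a filter at a mean of 5 or none, a fit of only the groups compared, a replicate block and leaving out each library.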

Additional observations from a re-analysis of the deposited data

Results flagged for a closer look

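The effect of the inhibitor on a gene differed between day 1 and day 7 in 10 cases, each tested in limma as the day 7 minus the day 1 log2 fold change against the control of the same day, with 2 libraries per group. Under continuous inhibition, the difference was 1.125 for Dusp1 (adjusted p = 1.52e-05), 0.5554 for Dusp6 (0.00228) and -0.6143 for Dusp5 (0.0163). After pretreatment it was -0.5003 for Dusp1 (0.02), -0.5773 for Dusp4 (0.00645), -1.1272 for Dusp6 (1.83e-06), -1.2875 for Spry1 (0.00019), -0.6055 for Spry2 (0.00578), -0.9376 for Spry4 (3.5e-05) and -2.1715 for Egr1 (0.000612). Dusp1 and Dusp6 are in both sets with opposite signs, and the same ctr.d1 and ctr.d7 libraries serve in both tests. Of the 10 genes, 3 passed under continuous inhibition, against 21.6% of all genes tested in either direction, and 7 after pretreatment, against 16.7%. The calls of Dusp5 under continuous inhibition and of Dusp1, Dusp4 and Spry2 after pretreatment were lost in at least 1 alternative, as given above.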

How the results depend on the processing

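Of 170 results for a gene in a comparison, 83 passed the threshold and 41 of these passed in each alternative tried, and no called value changed sign. When only the groups compared were fitted, which leaves 2 residual degrees of freedom for a pair of groups, the number of the 10 genes called was 1 for MEF.p38i, 0, 0, 0 and 5 for pre_p38i on days 1, 3, 5 and 7, 1, 0 and 1 for p38i on days 1, 3 and 5, 2 for p38i.d5 against pre_p38i.d5 and 4 for the change of the pretreatment effect. At an unadjusted p under 0.05, limma called 4, 2 and 3 of the 10 genes in pre_p38i on days 1, 3 and 5 and 0 in p38i on day 3 in these fits. For p38i on day 3, no filter and quantile normalization also gave 0, with 5 and 1 genes at an unadjusted p under 0.05, and more genes tested make the adjustment stricter where no filter is used. For quantile normalization the cause was not tested.

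Leaving out 1 library gave 2 to 4 genes for MEF.p38i, 2 to 4, 1 to 3, 2 to 2 and 6 to 7 for pre_p38i on days 1, 3, 5 and 7, 1 to 3, 0 to 3, 1 to 3 and 2 to 3 for p38i, 5 to 5, 3 to 3, 3 to 4 and 8 to 8 for p38i against pre_p38i, 8 to 9 for ctr.d1 against MEF.ctr, 7 to 8 for ctr.d7 against ctr.d1, 2 to 4 for the change of the p38i effect and 6 to 7 for that of pretreatment. The 0 came without p38i.d3 replicate 2, where limma had 1 gene at an unadjusted p under 0.05. A group left with 1 library is assumed to vary like the others. With the replicate number as a block, the count went from 2 to 3 for p38i on day 3, where Dusp6 was added (-0.21, adjusted p = 0.0454), and from 3 to 2 on day 5, where Dusp10 was lost (-0.37, 0.0525), and changed in no other comparison. The numbers did not pair the libraries: over 91 pairs of groups the correlation of deviations ran from -0.084 to 0.087.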
